A study of Mus musculus with 4 samples.

Results

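The comparison described here sets the ObF1 library against the LnF1 library of mice given 1,3BD, over the 9895 genes whose mean over these 2 libraries was at least 5 CPM (counts scaled for library size), out of 55536 entries of the deposited table. RNA was sequenced from the stromal vascular fraction, the cells other than mature fat cells, of inguinal white fat of wild-type male mice at postnatal day 21. Each library is 1 pool of 3 mice. The labels do not spell out LnF1 and ObF1. The series asks what obesity of the parents changes in the adipose progenitors of their offspring, and the names are taken here as its offspring groups. 1,3BD is named in the labels as the drink, beside water, without being spelled out and without a dose. The question was how expression differed between ObF1 and LnF1 offspring when both had 1,3BD. A second pair of libraries, ObF1 and LnF1 with water, shares no library with this one and is given beside it where stated.

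The stromal vascular fraction holds the progenitors from which white and beige fat cells form, together with vessel, nerve and immune cells. Adipose progenitors are fibroblast-like cells that carry Pdgfra and lay down collagen and fibronectin, and their conversion to fat cells runs through transcription factors such as Pparg and Cebpa. Retinoids, sex steroids, Wnt and bone morphogenetic protein signals are known to act on them.

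Each side is 1 library, so that no difference below has a replicate check or a p-value. Differences are log2(CPM + 0.08) in ObF1 minus the same in LnF1, and genes were counted by size, at a difference of 1 or more, which is 2-fold. This scale understates the change of genes with few reads. Intervals are exact 95% counting intervals of the ratio of the 2 libraries. They cover counting error only, not the spread between mice or preparations. In a bulk library, fewer cells of a type and less RNA per cell cannot be told apart.

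The 2 libraries held 24586827 (LnF1) and 25432747 (ObF1) reads, against 24804006 and 26000090 with water. Of 11 adipose progenitor markers, Pdgfra was at 281 CPM in LnF1 and 412 CPM in ObF1, and the summed level of the 11 was 1051 CPM in LnF1 and 1252 CPM in ObF1. Markers of T cells, B cells, red blood cells and epithelial cells were at or near 0. The 5 macrophage markers summed to 4.34 CPM in LnF1 and 8.32 CPM in ObF1. Among them Lyz2 was at 1.33 CPM in LnF1 and 4.95 CPM in ObF1, while Csf1r and Mrc1 were lower in ObF1. The 6 smooth muscle markers, which myofibroblasts share, summed to 146 CPM in LnF1 and 226 CPM in ObF1. Ptprc, carried by all leukocytes, had 1 read in LnF1 and 4 in ObF1, and Adipoq, Lep, Ucp1, Epcam and Cd3e had 0 in both. Of 14 mature fat cell genes, 4 were at a mean of 5 CPM, and the 14 summed to 285 CPM in LnF1 and 196 CPM in ObF1. Most of that was Fabp4, a fatty acid carrier, at 223 CPM in LnF1 and 151 CPM in ObF1, and at 5.94 CPM in LnF1 and 8.47 CPM in ObF1 with water. The 9 endothelial genes summed to 18.002 and 9.90 CPM, with Flt1 the highest, and the 5 defining ones among them to 1.18 and 2.70 CPM. The 6 pericyte genes summed to 67.2 and 26.6 CPM, mostly Notch3, and the 4 defining ones to 5.67 and 2.14 CPM. The part of these cells in the differences below was not tested. Expression levels with 1,3BD lay far from those with water for some of these genes. The smooth muscle actin gene Acta2 was at 113 CPM in LnF1 and 165 CPM in ObF1 with 1,3BD, and at 7692 CPM in LnF1 and 8097 CPM in ObF1 with water.

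Most genes differed little between the offspring groups. The median log2 difference was 0.03, the middle 50% of genes lay between -0.28 and 0.31, and 90% lay between -0.82 and 0.74. In ObF1, 175 genes (1.77%) were at least 2-fold higher and 253 (2.56%) at least 2-fold lower. Together these 428 were 4.33% of all genes, the share beside which each list count below stands. The counting interval of none of these 428 genes held a ratio of 1, which the minimum of 5 CPM fixed in advance. At that minimum, equal libraries would give ratios between 0.783 and 1.28 by counting alone. With library totals in place of the authors' factors, which shifts every difference by -0.12, 125 genes were higher and 386 lower. The counting interval lay wholly past 2-fold for 104 of the higher and 118 of the lower genes. The share past 2-fold was 8.0% of the 3236 genes at 5 to 20 CPM, 1.52% of the 1908 at 100 to 1000 CPM and 10 of the 75 at 1000 CPM and over. Those 10 were 7 mitochondrially encoded genes and Mt1, which were higher, and Ftl1 and the ribosomal RNA entry CT010467.1, which were lower. Of the 1983 genes at a mean of at least 100 CPM, 29 were higher and 10 lower. Of the genes at the minimum of 5 CPM, Zfp692 lay just inside it, at 6.63 CPM in LnF1 and 3.37 CPM in ObF1, and Rpia just outside, at 6.02 CPM in LnF1 and 3.97 CPM in ObF1.

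**Figure D1:**
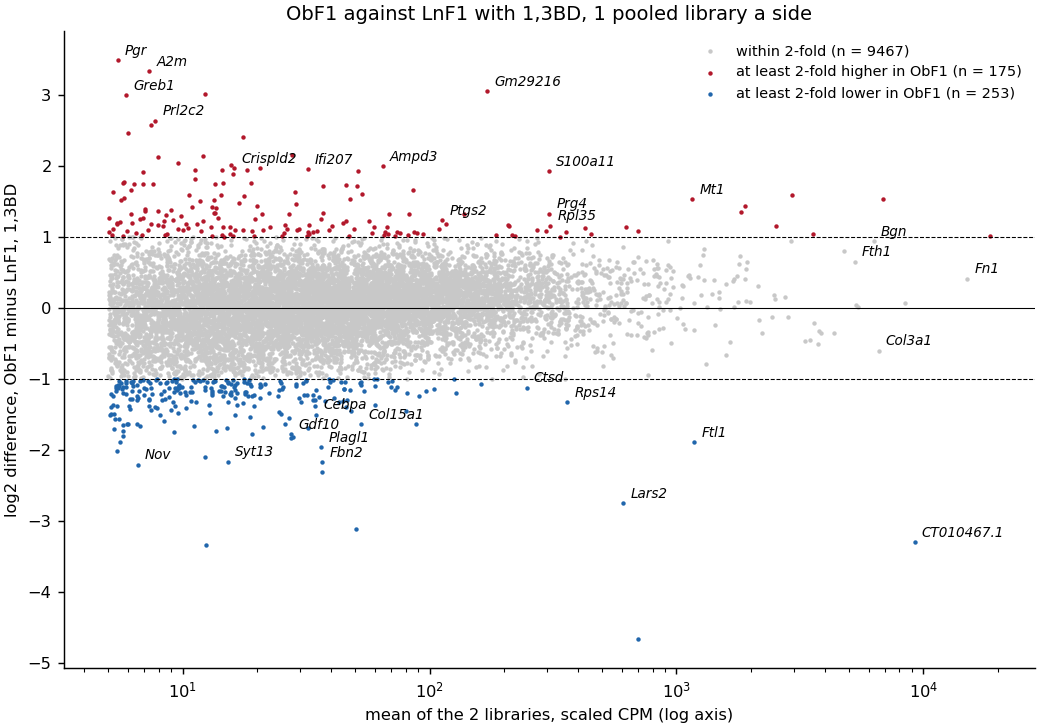
Log2 difference of ObF1 minus LnF1 with 1,3BD (vertical axis) against the mean level of the 2 libraries in scaled CPM (horizontal log axis), 1 point a gene, 9895 genes. Red points (175) are at least 2-fold higher and blue points (253) at least 2-fold lower in ObF1, dashed lines mark 2-fold, and the labelled CT010467.1 is a ribosomal RNA entry.

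A progesterone receptor and an oestrogen-induced gene were among the genes with the largest differences upward in ObF1. Pgr, the progesterone receptor, was at 0.825 CPM in LnF1 and 10.1 CPM in ObF1, a ratio of 12.2-fold (95% counting interval 7.98 to 19.6). Greb1, a gene that oestrogen receptor induces in breast cells, was at 1.26 CPM in LnF1 and 10.6 CPM in ObF1, or 8.43-fold (95% counting interval 5.92 to 12.3). Both were also higher in ObF1 with water, where Pgr was at 1.87 CPM in LnF1 and 16.99 CPM in ObF1 and Greb1 at 1.66 CPM in LnF1 and 11.3 CPM in ObF1. Of the 9 measured genes of the sex steroid list, 3 were higher, Pgr and Greb1 among them, and 0 lower. Pgr and Greb1 passed the minimum of 5 CPM only through ObF1, so the minimum itself favoured this count. The 3 are 33.3% of the list, against 4.33% of all genes past 2-fold. The other 6 were within 2-fold, among them Hsd17b11, a steroid dehydrogenase (0.43), and Fkbp4, a co-chaperone of steroid receptors (-0.26). The median of the list was 0.11, against 0.03 over all genes.

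The promoters of Pgr and Greb1 are shown because both genes stand on the sex steroid list and were higher in ObF1 with both drinks. They are the 250 bases before the transcription start in RefSeq (GRCm38.p6), 5′ to 3′ on the gene's strand. The Pgr window (chr9:8899583-8899832, plus strand) has its single GC box, GGGCGG, in capitals. The Greb1 window (chr12:16800887-16801136, minus strand) has in capitals its single copy of TGACC, a core of the sites that oestrogen receptor binds, which was chosen after the values were seen. A different motif is marked in each window. The Pgr window holds no TGACC on either strand, and the Greb1 window no GGGCGG.
Pgr: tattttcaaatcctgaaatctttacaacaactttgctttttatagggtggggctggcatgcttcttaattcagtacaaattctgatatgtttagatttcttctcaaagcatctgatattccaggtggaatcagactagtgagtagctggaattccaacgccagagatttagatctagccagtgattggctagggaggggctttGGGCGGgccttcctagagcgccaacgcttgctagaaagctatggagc
Greb1: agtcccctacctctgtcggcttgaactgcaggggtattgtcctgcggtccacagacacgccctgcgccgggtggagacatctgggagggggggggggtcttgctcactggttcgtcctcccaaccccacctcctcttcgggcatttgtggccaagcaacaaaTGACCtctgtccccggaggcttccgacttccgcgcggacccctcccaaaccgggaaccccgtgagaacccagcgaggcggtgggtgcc
Both motifs are common. On both strands of 300-base windows, GGGCGG stood in 36% of all 27023 promoters and TGACC in 40.1%. TGACC stood in 38.8% of the promoters of higher genes, 35.8% of lower genes and 35.9% of genes within 2-fold, and a match is a description of letters, not a site.

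A2m, a secreted inhibitor of many proteases, was at 1.26 CPM in LnF1 and 13.4 CPM in ObF1, or 10.7-fold (95% counting interval 7.53 to 15.6). Its level was far lower with water, at 0.127 CPM in LnF1 and 1.09 CPM in ObF1. Prl2c2, a secreted hormone of the prolactin family, was at 2.08 CPM in LnF1 and 13.4 CPM in ObF1. Its near-identical neighbour Prl2c3 was at 7.14 CPM in LnF1 and 21.6 CPM in ObF1, and the counting could split reads between them. Ampd3, which deaminates AMP, was at 25.8 CPM in LnF1 and 104 CPM in ObF1, or 4.01-fold (95% counting interval 3.69 to 4.36). Crispld2, a secreted glycoprotein, was at 6.53 CPM in LnF1 and 25.7 CPM in ObF1, and Ifi207, of the interferon-inducible p200 family with several alike members, at 13.1 CPM in LnF1 and 50.998 CPM in ObF1. Ampd3, Crispld2 and Ifi207 were at least 2-fold higher in ObF1 with water as well (2.26, 2.63 and 1.09). With water, Prl2c2 was at 0.0424 CPM in LnF1 and 0.348 CPM in ObF1, and it and A2m rested there on few reads in LnF1. With 1,3BD, Prl2c2 and A2m passed the minimum of 5 CPM only through ObF1.

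Among abundant genes, S100a11, Dynlrb1, Layn and Rtraf were higher with 1,3BD and within 2-fold with water, and Prg4 and Ptgs2 were higher with both drinks. S100a11, a calcium-binding protein, was at 126 CPM in LnF1 and 480.3 CPM in ObF1, or 3.81-fold (95% counting interval 3.67 to 3.95), and at 691 CPM in LnF1 and 566 CPM in ObF1 with water. Dynlrb1, a light chain of the dynein motor, was at 79.3 CPM in LnF1 and 198 CPM in ObF1. Layn, a hyaluronan receptor of the cell surface, was at 71.5 CPM in LnF1 and 162 CPM in ObF1. Rtraf, an RNA-binding factor, was at 128 CPM in LnF1 and 289 CPM in ObF1, and its difference of 1.17 came to 0.99 after the adjustment for GC content described below. Prg4, the lubricating proteoglycan of joints, was at 174 CPM in LnF1 and 436 CPM in ObF1, and with water at 1.40 CPM in LnF1 and 3.21 CPM in ObF1. Ptgs2, the inducible cyclooxygenase, was at 67.3 CPM in LnF1 and 158 CPM in ObF1, with a log2 difference of 1.23 here and 2.40 with water.

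**Figure D2:**
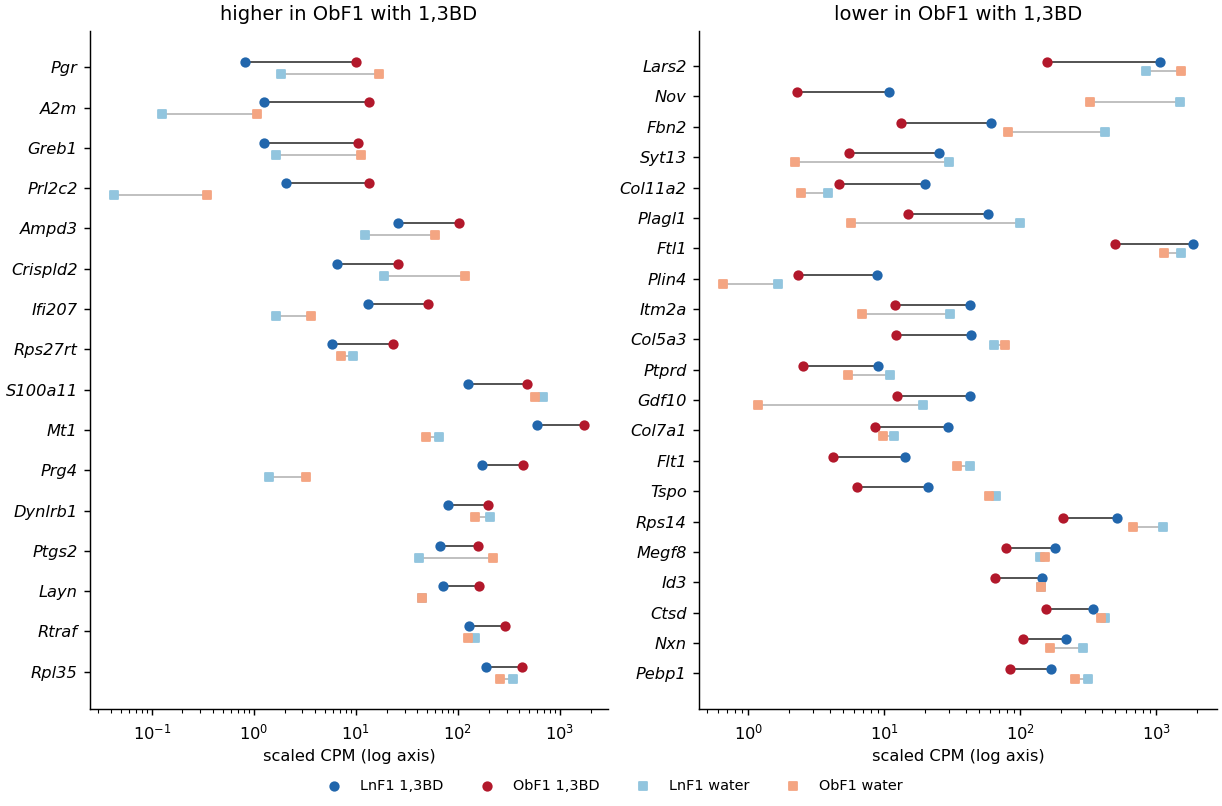
Scaled CPM (horizontal log axis) in the 4 libraries for the genes with the largest differences, pseudogenes left out: circles are the 1,3BD libraries and squares the water libraries, with LnF1 in dark or light blue and ObF1 in red or orange, and a line joins each pair. In the left panel the ObF1 circle lies to the right for each gene and in the right panel to the left, while the order of the squares varies: Pgr, Greb1 and Ampd3 keep it and S100a11, Mt1 and Lars2 do not.

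The genes lower in ObF1 included growth and matrix genes that were also lower with water. Nov, a matricellular protein of the CCN family, was at 10.9 CPM in LnF1 and 2.29 CPM in ObF1, or lower by 4.75-fold (95% counting interval 3.60 to 6.36). With water it was at 1487 CPM in LnF1 and 324 CPM in ObF1, with nearly the same log2 difference (-2.21 and -2.20) at a much higher level. Fbn2, a fibrillin of early microfibrils, was at 60.4 CPM in LnF1 and 13.3 CPM in ObF1, and Syt13, a synaptotagmin, at 25.1 CPM in LnF1 and 5.51 CPM in ObF1. Gdf10, a ligand of the bone morphogenetic protein family, was at 42.6 CPM in LnF1 and 12.4 CPM in ObF1, and Itm2a, a membrane protein, at 42.8 CPM in LnF1 and 11.9996 CPM in ObF1. Their log2 differences with water were -2.35, -3.71, -3.96 and -2.14 in the same order. Ptprd, a receptor phosphatase, was at 8.93 CPM in LnF1 and 2.51 CPM in ObF1, and Plin4, a coat protein of lipid droplets, at 8.79 CPM in LnF1 and 2.32 CPM in ObF1. With 1,3BD, Nov, Ptprd and Plin4 passed the minimum of 5 CPM only through LnF1.

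Other lower genes had no 2-fold difference with water. Ftl1, the ferritin light chain that forms the iron store with Fth1, was at 1859 CPM in LnF1 and 500.0 CPM in ObF1, or lower by 3.72-fold (95% counting interval 3.65 to 3.79). The heavy chain Fth1 lay the other way, at 4097 CPM in LnF1 and 6427 CPM in ObF1, within 2-fold (0.65). Ftl1 has near-identical copies in the genome, so its value depends on how reads were shared among them. Flt1, a receptor of vascular endothelial growth factor, was at 14.3 CPM in LnF1 and 4.20 CPM in ObF1, and was the only one of 9 listed endothelial genes at a mean of 5 CPM. Tspo, of the outer mitochondrial membrane, was at 21.1 CPM in LnF1 and 6.26 CPM in ObF1. Col11a2 was at 20.01 CPM in LnF1 and 4.61 CPM in ObF1. Flt1 and Col11a2 passed the minimum of 5 CPM only through LnF1. Lars2, the mitochondrial leucyl-tRNA synthetase, was at 1059.5 CPM in LnF1 and 157 CPM in ObF1, the largest difference downward among genes with a symbol of their own at a mean of 5 CPM, and at 844 CPM in LnF1 and 1528 CPM in ObF1 with water. It differed in the same direction as entries of ribosomal RNA, given below, and their part in its value was not tested.

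The number of lower genes moved with the base composition of the transcripts. Over 9647 protein-coding genes, Spearman's correlation of the log2 difference with the GC content of the longest transcript was -0.48 (Pearson -0.47). All of these points share the same 2 libraries. The correlation with transcript length was 0.04. Genes were ranked by GC content into 10 equal bins. In the lowest bin (up to 41.1%), 23 were higher and 0 lower in ObF1. In the highest bin (57.4% and over), 3 were higher and 118 lower, and the median log2 difference was -0.49. The 3 highest bins held 201 of the 241 lower protein-coding genes. With water the correlation was -0.26 and the median of the highest bin -0.15. When the median of each of 20 GC bins was taken off, an adjustment chosen after seeing the data, 186 genes were higher and 92 lower. Of the 253 lower genes, 79 were still past 2-fold, and of the 175 higher genes 127. Lower genes made up 59.1% of all genes past 2-fold before the adjustment and 33.1% after it. What part GC content has in any single difference was not tested. Adjusted values are given below for genes that it took under 2-fold.

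**Figure D3:**
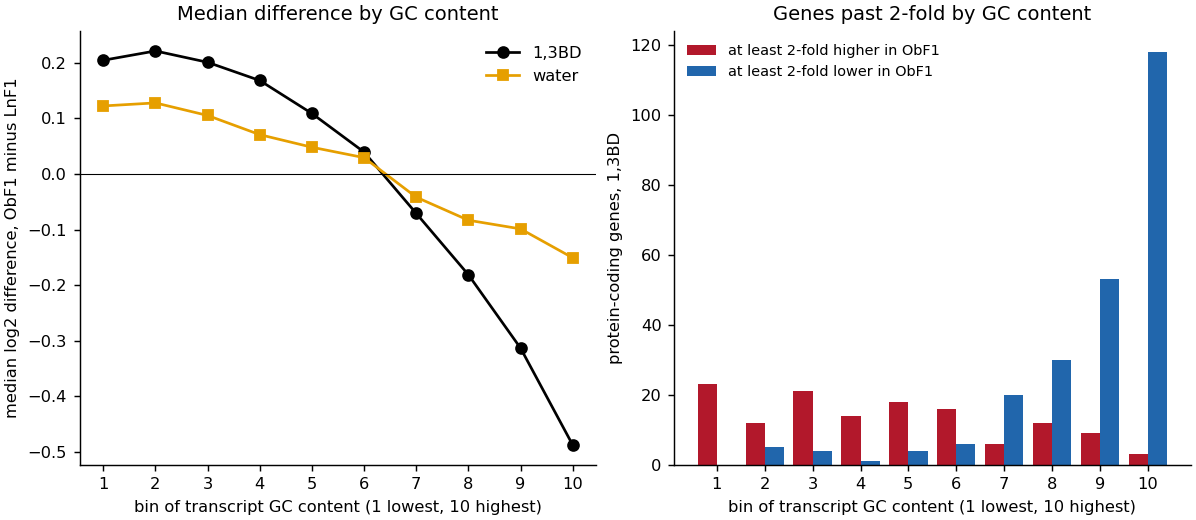
Left, median log2 difference of ObF1 minus LnF1 in 10 equal bins of protein-coding genes ranked by transcript GC content, with 1,3BD (black) and with water (orange). Right, the number of genes at least 2-fold higher (red) or lower (blue) with 1,3BD in the same bins: the lower genes gather in the bins of high GC content, 118 of them in the highest.

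Ribosomal RNA, mitochondrial and pseudogene entries also differed between the 2 libraries. The ribosomal RNA entry CT010467.1 was at 16729 CPM in LnF1 and 1700.5 CPM in ObF1, 1.90% and 0.178% of the reads, and at 21814 CPM in LnF1 and 29262 CPM in ObF1 with water. Gm26917, a non-coding gene beside it, was at 61.4 CPM in LnF1 and 12.3 CPM in ObF1, and Gm23935, annotated as a microRNA gene, at 1348 CPM in LnF1 and 53.2 CPM in ObF1. Genes of the mitochondrial genome took 2.78% of the reads in LnF1 and 5.80% in ObF1, against 1.13% and 1.30% with water. Of the 9 mitochondrial protein genes measured, 7 were higher and 0 lower, with a median of 1.16. The 7 are 77.8% of the list, against 4.33% of all genes past 2-fold. mt-Nd4, a subunit of complex I, was at 1461 CPM in LnF1 and 4386 CPM in ObF1, and mt-Co1, of complex IV, at 12398 CPM in LnF1 and 24984 CPM in ObF1. The adjustment took 3 of the 7 under 2-fold, mt-Nd1 to 0.99, mt-Cytb to 0.87 and mt-Co1 to 0.84. Of the 74 nuclear subunits of the same complexes, 1 was higher, Uqcrb (34.1 to 79.9 CPM), and 3 lower, Cyc1, Atp5d and Ndufb11, and the adjustment took those 3 to -0.54, -0.49 and -0.89. Their median was -0.05.

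Of 83 pseudogenes measured, 38 were higher and 1 lower, with a median of 0.85 (-0.16 with water). Over all genes, 1.77% were higher and 2.56% lower. Among them were 20 pseudogenes of ribosomal proteins, of which 17 were higher. Several, Rpl10-ps6, Rps12-ps4, Rpl34-ps1, Rps16-ps2 and Rpl9-ps6 among them, passed the minimum of 5 CPM only through ObF1. The minimum itself thus favoured the count of higher pseudogenes. Rpl10-ps6 was at 2.08 CPM in LnF1 and 12.9 CPM in ObF1, Rps12-ps4 at 1.79 CPM in LnF1 and 10.3 CPM in ObF1 and Rpl10a-ps1 at 10.1 CPM in LnF1 and 45.4 CPM in ObF1, and Rpl34-ps1, Rps16-ps2, Rps6-ps4 and Rpl9-ps6 had differences of 2.14, 2.04, 2.01 and 1.94. Rps27rt, a retrocopy of Rps27, was at 5.88 CPM in LnF1 and 22.9 CPM in ObF1. The 79 genes of the cytosolic ribosome themselves had a median of 0.07, with 3 higher and 2 lower. Rpl35 was at 190.1 CPM in LnF1 and 425 CPM in ObF1, Rps26 at 391 CPM in LnF1 and 859.6 CPM in ObF1 and Rpl19 at 449.6 CPM in LnF1 and 952 CPM in ObF1, while Rps14 was at 517 CPM in LnF1 and 206 CPM in ObF1 and Rpl22l1 at 27.3 CPM in LnF1 and 11.6 CPM in ObF1. Reads of these genes and of their copies cannot be separated with certainty, so each of these values is uncertain. The adjustment took Rps14 to -0.995, just short of 2-fold. The mitochondrial ribosome had 1 lower gene of 76, Mrps34 (-1.21, adjusted -0.63), which passed the minimum only through LnF1.

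Matrix genes moved in both directions. Of 19 collagen chains measured, 0 were higher and 3 lower, and 16 had a difference below 0. The 3 are 15.8% of the list, against 4.33% of all genes past 2-fold. Col5a3, a minor chain of collagen V, was at 43.5 CPM in LnF1 and 12.3 CPM in ObF1, Col7a1, of anchoring fibrils, at 29.5 CPM in LnF1 and 8.59 CPM in ObF1, and Col15a1, of basement membrane zones, at 80.3 CPM in LnF1 and 25.7 CPM in ObF1. All 3 stayed past 2-fold after the GC adjustment (-1.24, -1.20 and -1.29). The median of the list was -0.47, or -0.18 adjusted, at a median GC content of 56.4%, and 0.24 with water. The abundant chains were within 2-fold, Col3a1 at 7941 CPM in LnF1 and 5239 CPM in ObF1, Col1a2 at 4391 CPM in LnF1 and 3097 CPM in ObF1 and Col4a1 at 3858 CPM in LnF1 and 2791 CPM in ObF1. Col12a1, of the fibril surface, lay the other way, at 1355 CPM in LnF1 and 2253 CPM in ObF1.

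Of 40 elastic fibre, proteoglycan and matricellular genes, 3 were higher and 4 lower, or 17.5% past 2-fold against 4.33% of all genes. Besides Prg4, the higher ones were Ctgf, a matricellular growth factor, at 8.57 CPM in LnF1 and 29.2 CPM in ObF1, and Prelp, a small leucine-rich proteoglycan, at 41.3 CPM in LnF1 and 131 CPM in ObF1. Besides Nov, the lower ones were Tnxb, a tenascin, at 40.3 CPM in LnF1 and 13.6 CPM in ObF1, Has1, a hyaluronan synthase (-1.11), and Ltbp4, which holds latent TGF-beta (-1.05). The adjustment took Tnxb to -0.98 and Ltbp4 to -0.47. Nov and Has1 (7.85 CPM in LnF1 and 3.60 CPM in ObF1) passed the minimum of 5 CPM only through LnF1. The minimum itself thus favoured the count of lower genes. Ctgf and Nov belong to the same family, and Ctgf was higher and Nov lower in ObF1 with both drinks. In scaled reads not divided by length, the 3 largest gains outside the mitochondrial genome were in matrix genes within 2-fold. Fn1, fibronectin, was at 12917 CPM in LnF1 and 17157 CPM in ObF1, Bgn, biglycan, at 4315 CPM in LnF1 and 8266 CPM in ObF1, and Lox, which cross-links collagen and elastin, at 3483 CPM in LnF1 and 6047 CPM in ObF1. Of 26 matrix proteases and inhibitors, 0 passed 2-fold either way.

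**Figure D4:**
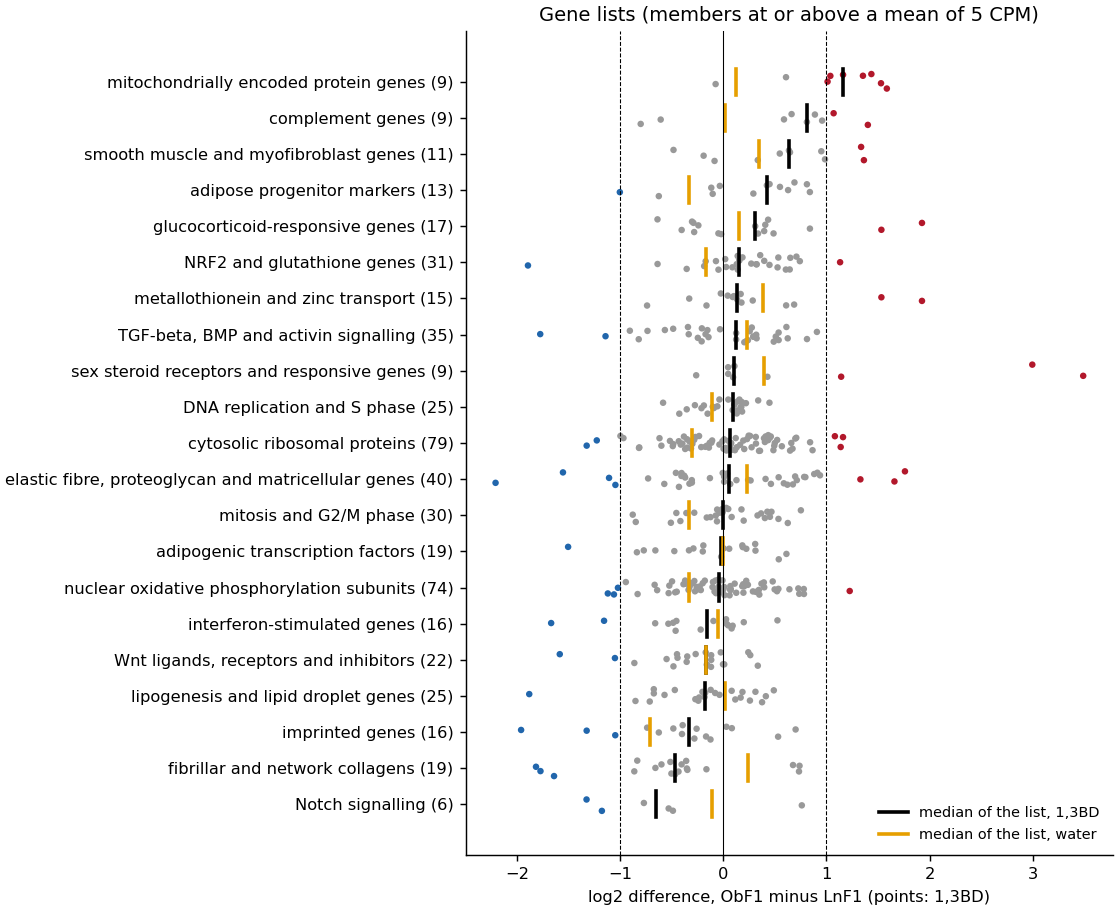
Log2 difference of ObF1 minus LnF1 with 1,3BD for the measured members of 21 gene lists, with the number of members in brackets: red and blue points are at least 2-fold higher and lower, the black bar is the list's median with 1,3BD and the orange bar its median with water. The mitochondrially encoded genes have the highest median (1.16) and the Notch genes the lowest (-0.65), and for the collagens the bars of the 2 drinks lie on opposite sides of 0.

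Of 11 smooth muscle and myofibroblast genes, 2 were higher and 0 lower, 8 lay above 0, and the median was 0.64 (0.35 with water). The 2 are 18.2% of the list, against 4.33% of all genes past 2-fold, and 1 of them, Myh11, passed the minimum only through ObF1. The summed level of the smooth muscle and myofibroblast list was 1924 CPM in LnF1 and 2934 CPM in ObF1. Myh11, the smooth muscle myosin, was at 4.41 CPM in LnF1 and 11.5 CPM in ObF1, and Synpo2, an actin-bundling protein, at 7.67 CPM in LnF1 and 19.5 CPM in ObF1. Cnn1, calponin, was at 11.9 CPM in LnF1 and 23.7 CPM in ObF1 (0.99), and Tpm2, a tropomyosin, at 53.2 CPM in LnF1 and 103 CPM in ObF1 (0.95). Among markers of the pericytes that wrap small vessels, Notch3 was at 61.5 CPM in LnF1 and 24.5 CPM in ObF1, Rgs5 was at 1.83 CPM in LnF1 and 0.750 CPM in ObF1 and Kcnj8 at 1.11 CPM in LnF1 and 0.0750 CPM in ObF1.

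Few genes of fat cell formation differed by 2-fold. Of 19 adipogenic transcription factors, 1 was lower, Cebpa, at 51.5 CPM in LnF1 and 18.1 CPM in ObF1 and at 43.7 CPM in LnF1 and 17.9 CPM in ObF1 with water. Its difference of -1.51 came to -0.93 after the adjustment. Srebf1, a regulator of lipid synthesis, was at 55.4 CPM in LnF1 and 30.97 CPM in ObF1 and Ebf2, a factor of beige fat precursors, at 17.9 CPM in LnF1 and 27.3 CPM in ObF1, both within 2-fold. Of 25 lipogenesis and lipid droplet genes, 1 was lower, Plin4, and 16 of the 25 lay below 0. Fasn, fatty acid synthase, was at 433 CPM in LnF1 and 271 CPM in ObF1. Tusc5, a protein of insulin-driven glucose transport in fat cells, was at 14.5 CPM in LnF1 and 6.19 CPM in ObF1, 1 of 4 mature fat cell genes measured. Esrra, a nuclear receptor that drives mitochondrial genes, was at 23.8 CPM in LnF1 and 9.22 CPM in ObF1, and kept a difference of -1.36 when adjusted. Of 21 genes of fatty acid oxidation, Acadvl was lower (-1.01, adjusted -0.80). Among 13 progenitor genes, Fgf10, a growth factor for adipose precursors, was lower, at 12.3 CPM in LnF1 and 6.11 CPM in ObF1, while Thy1 was at 157 CPM in LnF1 and 281 CPM in ObF1 and Cd55 at 18.1 CPM in LnF1 and 31.8 CPM in ObF1.

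Of the signalling families, Notch had the lowest median (-0.65 over 6 genes). The receptors Notch3 and Notch1 (24.96 to 10.99 CPM, LnF1 to ObF1) were lower, and Notch2 (-0.53), the ligand Jag1 (-0.77) and the target Hes1 (-0.49) were below 0. The 2 lower genes are 33.3% of this short list, against 4.33% of all genes past 2-fold. Rbpj, the DNA-binding partner of the receptors, lay the other way (0.76). The adjustment took Notch3 to -0.75 and Notch1 to -0.82. Of 22 Wnt genes, 18 lay below 0 and 2 were lower, the ligand Wnt4, at 12.7 CPM in LnF1 and 4.16 CPM in ObF1, and the receptor Fzd2 (-1.05, adjusted -0.70). These 2 are 9.09% of the Wnt list, and Wnt4 passed the minimum of 5 CPM only through LnF1. Of 35 genes of TGF-beta and bone morphogenetic protein signalling, Gdf10 was lower, as was Id3, a target of those signals, at 144 CPM in LnF1 and 65.1 CPM in ObF1. The adjustment took Id3 to -0.81.

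Growth factor and retinoid genes gave a few differences each. Stc1 and Stc2, stanniocalcins that block the protease freeing IGF from its binding proteins, were at 16.7 CPM in LnF1 and 36.3 CPM in ObF1 and at 5.99 CPM in LnF1 and 13.1 CPM in ObF1. Both were also higher with water (1.31 and 1.46), and the adjustment took Stc1 to 0.94. The other 16 genes of the IGF list were within 2-fold. Gfra1, the receptor subunit for glial cell line-derived neurotrophic factor, was at 32.2 CPM in LnF1 and 9.97 CPM in ObF1. In the retinoid list of 10 genes, Aldh1a1, which makes retinoic acid, was at 27.5 CPM in LnF1 and 64.6 CPM in ObF1. Cyp26b1, which breaks it down, was at 10.5 CPM in LnF1 and 5.21 CPM in ObF1 and the receptor Rxrb at 42.03 CPM in LnF1 and 17.4 CPM in ObF1. The adjustment took these last 2 to -0.65 and -0.69. Alpl, the alkaline phosphatase of mineralising cells, was at 21.01 CPM in LnF1 and 53.4 CPM in ObF1.

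The metallothioneins Mt1 and Mt2, small proteins that bind zinc and copper, were both higher in ObF1. Mt1 was at 595 CPM in LnF1 and 1723 CPM in ObF1, or 2.89-fold (95% counting interval 2.84 to 2.95), and Mt2 at 21.3 CPM in LnF1 and 81.3 CPM in ObF1, or 3.81-fold (95% counting interval 3.48 to 4.18). With water, Mt1 was at 66.05 CPM in LnF1 and 48.5 CPM in ObF1. Mt2 was there at 0.849 CPM in LnF1 and 0.869 CPM in ObF1, a log2 difference of 0.03 that rested on few reads. The other 13 genes of the metal list, zinc transporters and the metal sensor Mtf1 among them, were within 2-fold. Both genes also stand on the glucocorticoid list of 17 genes, where none of the other 15 passed 2-fold. Tsc22d3, a common glucocorticoid target, was at 53.6 CPM in LnF1 and 75.2 CPM in ObF1 (0.49).

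Mt1 and Mt2 are neighbours, and their promoters are shown because the pair moved together. Their RefSeq starts lie 6471 bases apart on the plus strand (GRCm38.p6). Capitals mark TGCNCNC on either strand, the core of the metal response element that the factor MTF-1 binds, a motif chosen after the values were seen. Mt2 is chr8:94172368-94172617, plus strand, and Mt1 chr8:94178839-94179088, plus strand.
Mt2: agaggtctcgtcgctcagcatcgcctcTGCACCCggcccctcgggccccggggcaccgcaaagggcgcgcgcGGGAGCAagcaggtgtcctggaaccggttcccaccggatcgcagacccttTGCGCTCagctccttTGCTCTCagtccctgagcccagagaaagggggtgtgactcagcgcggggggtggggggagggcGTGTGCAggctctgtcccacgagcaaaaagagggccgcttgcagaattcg
Mt1: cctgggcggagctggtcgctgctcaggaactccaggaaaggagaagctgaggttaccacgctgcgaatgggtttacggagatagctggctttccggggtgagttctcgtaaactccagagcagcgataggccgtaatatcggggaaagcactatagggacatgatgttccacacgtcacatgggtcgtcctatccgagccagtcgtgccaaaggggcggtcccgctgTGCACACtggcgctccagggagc
The Mt2 window held 5 matches and the Mt1 window 1. Each window ends at a single RefSeq start, the one nearest the edge of the annotated gene. Matches after that start or near other starts were not counted, so the numbers do not describe either whole promoter. Over 300-base windows, 50.4% of all promoters held the motif, as did 68.4% of the 98 higher and 61.1% of the 193 lower genes with a promoter in the table, and 60.7% of the 7474 genes within 2-fold.

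Shares of promoters that hold each other motif searched, on both strands, follow for the higher genes, the lower genes and the genes within 2-fold. GGGCGG stood in 59.2% of the higher, 73.1% of the lower and 69.3% of the genes within 2-fold. TGANTCA, the AP-1 motif, stood in 8.16%, 3.63% and 4.03% in the same order, which is 8 of 98, 7 of 193 and 301 of 7474. The CArG box of serum response factor stood in 5 of 98, 3 of 193 and 97 of 7474. The E-box CACGTG stood in 13.3%, 9.33% and 11%, the TEAD motif GGAATG in 11.2%, 13% and 11.3%, and TATAAA in 9.18%, 7.25% and 6.17%. AGAACA, from the glucocorticoid receptor site, stood in 15.3%, 10.9% and 11.1%, and TGACGTCA in 1 of 98, 5 of 193 and 275 of 7474. These shares describe letters in a window and not binding.

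Stress and redox genes mostly stayed within 2-fold. In the NRF2 and glutathione list of 31 genes, 24 lay above 0, Gpx3, a secreted glutathione peroxidase, was higher, at 266 CPM in LnF1 and 584 CPM in ObF1, and Ftl1 was lower. Hmox1, haem oxygenase, was at 731 CPM in LnF1 and 1113 CPM in ObF1 and Gclm, of glutathione synthesis, at 174 CPM in LnF1 and 284 CPM in ObF1. Of 25 genes of the unfolded protein response, 0 passed 2-fold. Of 36 ATF4 and amino acid genes, Stc2 was higher and Trib3, a pseudokinase induced by ATF4, lower (-1.09, adjusted -0.66). Adm, adrenomedullin, was the only gene past 2-fold of 28 in glycolysis and hypoxia response, at 21.05 CPM in LnF1 and 70.4 CPM in ObF1. Bbc3, a p53 target that promotes cell death, was at 9.04 CPM in LnF1 and 2.85 CPM in ObF1, and Phlda3, another, had a difference of -1.05 (adjusted -0.47). Bbc3 passed the minimum of 5 CPM only through LnF1. Ctsd, a lysosomal protease, was at 339 CPM in LnF1 and 155 CPM in ObF1, and Map1lc3a, an autophagosome protein, at 34.03 CPM in LnF1 and 15.2 CPM in ObF1. The adjustment took these last 2 to -0.80 and -0.58.

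Immune and inflammatory genes were few at this level. Of 9 complement genes, 2 were higher and 0 lower, with a median of 0.81 (0.01 with water). The 2 are 22.2% of the list, against 4.33% of all genes past 2-fold. Serping1, the C1 inhibitor, was at 7.46 CPM in LnF1 and 19.8 CPM in ObF1, and C3, the central component, at 3.23 CPM in LnF1 and 6.86 CPM in ObF1. C3 passed the minimum of 5 CPM only through ObF1. C4b, a form of component C4, was at 10.97 CPM in LnF1 and 6.26 CPM in ObF1, within 2-fold. H2-Ab1, a chain of MHC class II, was at 6.63 CPM in LnF1 and 22.6 CPM in ObF1, with 2.24 on the log2 scale with water, while 9 other antigen presentation genes were within 2-fold. Cxcl14, a chemokine of stromal cells, was at 5.27 CPM in LnF1 and 16.01 CPM in ObF1. Of 16 interferon-stimulated genes, 0 were higher and 2 lower, Bst2, at 16.997 CPM in LnF1 and 5.29 CPM in ObF1, and Ifi27, at 100.1 CPM in LnF1 and 44.8 CPM in ObF1. These 2 are 12.5% of that list. Leukocyte and lymphocyte lists had 0 genes at a mean of 5 CPM. Their summed levels were 5.31 and 0.466 CPM in LnF1, and 9.94 and 0.375 CPM in ObF1.

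Imprinted genes, expressed from 1 parental allele, had 3 lower members of 16 and 0 higher. The 3 are 18.8% of the list, against 4.33% of all genes past 2-fold. Plagl1, a transcription factor that acts on other imprinted genes, was at 58.1 CPM in LnF1 and 14.8 CPM in ObF1 and at 99.1 CPM in LnF1 and 5.65 CPM in ObF1 with water. H19 was at 13.1 CPM in LnF1 and 5.17 CPM in ObF1 and at 250.3 CPM in LnF1 and 14.3 CPM in ObF1 with water, and Gnas at 23.8 CPM in LnF1 and 11.5 CPM in ObF1. The adjustment took H19 to -0.995, just short of 2-fold, and Gnas to -0.61. Meg3 was at 278 CPM in LnF1 and 167 CPM in ObF1 and Dlk1 at 8.61 CPM in LnF1 and 5.55 CPM in ObF1, within 2-fold. With water the median of the list was -0.72, and here -0.34.

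Several programmes had 0 genes past 2-fold either way. These were DNA replication (25 genes, median 0.09), mitosis (30, -0.01), Hox genes (14, 0.11), the TCA cycle (27, 0.07), cholesterol synthesis and uptake (24, -0.30), the circadian clock (14, -0.03), DNA and histone modifying enzymes (32, -0.10) and ketone body use with monocarboxylate transport (7, -0.42). Over all 55 lists, 33 of the 1009 distinct genes measured were higher and 41 lower, 3.27% and 4.06%, beside 1.77% and 2.56% of all genes.

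The same difference with water came from libraries that this comparison does not use. Over the same 9895 genes, 131 (1.32%) were at least 2-fold higher and 113 (1.14%) at least 2-fold lower in ObF1 with water. Of the 175 genes higher with 1,3BD, 30 were also higher with water, 17.1% of the 1,3BD list and 22.9% of the water list. Of the 253 lower ones, 20 were also lower with water, 7.91% and 17.7% of the lists. Of these 50 genes, 25 of the higher and 14 of the lower were still past 2-fold after the GC adjustment of the 1,3BD difference. Pgr, A2m, Greb1, Ampd3, Crispld2, Ctgf and H2-Ab1 were among those that were higher in both drinks, and Nov, Fbn2, Syt13, Plagl1, Gdf10 and Wnt4 among those that were lower. Whether the difference between ObF1 and LnF1 itself differed between the drinks could not be tested with 1 library each.

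**Figure D5:**
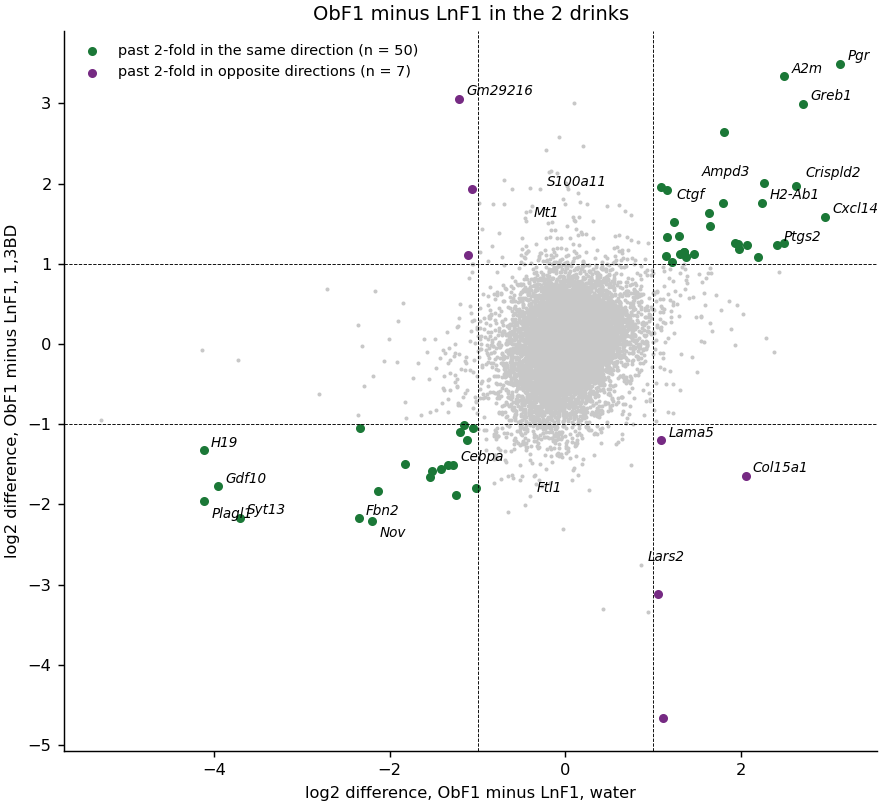
Log2 difference of ObF1 minus LnF1 with 1,3BD (vertical axis) against the same with water (horizontal axis), 1 point a gene, 9895 genes. Green points (50) are past 2-fold in the same direction in both drinks, purple points (7) in opposite directions, and dashed lines mark 2-fold: Pgr and Greb1 lie far out in the upper right and Plagl1, Gdf10 and Syt13 in the lower left.

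Among genes with a symbol of their own, the widest gaps between the 2 differences mostly came from genes with a large difference with water. Entries named by a number, Rik names and mitochondrial genes were left out of this ranking. Among those left out, Gm23935 had log2 differences of -4.66 with 1,3BD and 1.11 with water, Gm24270 -3.12 and 1.06, and Gm29216 3.06 and -1.21. Scara5, a ferritin receptor of fibroblasts, had log2 differences of -0.94 with 1,3BD and -5.28 with water, where ObF1 was at 0.217 CPM. Ptn, a heparin-binding growth factor, had -0.08 and -4.14, and Igfbp3, an IGF-binding protein, 0.69 and -2.71. Lgr5, a receptor for R-spondins, was at 0.789 CPM in LnF1 and 1.12 CPM in ObF1 with 1,3BD and at 30.1 CPM in LnF1 and 1.87 CPM in ObF1 with water. Tmem100 was at 19.6 CPM in LnF1 and 17.1 CPM in ObF1 with 1,3BD, and at 0.976 CPM in LnF1 and 0 in ObF1 with water. In the other direction, Col15a1 had -1.64 and 2.05, and Lars2 -2.75 and 0.86. Ngfr, Rgs8 and Cpxm2 were each under 2 CPM in both 1,3BD libraries, with water differences of 2.78, 3.18 and 2.54. Rgs4, a regulator of G protein signalling, was at 2.76 CPM in LnF1 and 0.262 CPM in ObF1, below the minimum of 5 CPM.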

How the data were processed

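RNA of the inguinal stromal vascular fraction was extracted with TRIzol and made into KAPA mRNA libraries, per the labels' protocols. The submitters' processing notes name mm10, edgeR and DESeq2, without roles or versions. The sources used here name no aligner, counter or strand setting. Reads of a gene and of one that overlaps it, antisense included, cannot be told apart.

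The authors deposited 1 table with a scaled signal per gene, in effect CPM divided by a library factor. Within a tolerance of 1e-06, 100% of values were whole multiples of 1 read, worth 0.0359 CPM in the LnF1 and 0.0375 CPM in the ObF1 library with 1,3BD. A count of 0 allows 3 reads, 0.108 and 0.112 CPM. At 5 CPM, or 136 reads, equal libraries would give ratios between 0.783 and 1.28 by counting alone. The columns that name no drink were matched to water. Of 126 repeated symbols, the entry with most reads kept the symbol.

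From these values log2(CPM + 0.08) differences were computed with Python 3.11.15, pandas 2.3.3, numpy 2.4.6 and scipy 1.17.1. The calculation was checked on simulated reads with planted differences. That check holds counting error only, and no spread between mice, trend with GC content or shared reads. A count test on the whole reads has no residual degrees of freedom with 1 library a side and was not run. Named genes are the 15 largest differences per direction at a mean of 5 CPM, the 8 largest at 100 CPM, the 6 largest in CPM, the 6 whose difference exceeded that with water most, up to 6 per list with its defining markers, and 1 gene on each side of the minimum. Entries named by a number, Rik names and mitochondrial genes were skipped in the first 4, which left out 35 higher and 12 lower entries past 2-fold. Prl2c3, Col12a1, Ltbp4, Mtf1, Hmox1, Lama5, Rgs5, Kcnj8, mt-Co1 and entries named only by number were chosen after their values were seen. A few named genes are not reported here. The members and lists were chosen with earlier results of these data known. GC content is that of the longest GENCODE transcript (GRCm38). Alternatives were another pseudocount, scaling, centring, minimum, a counting interval, protein-coding genes only and, added after seeing the data, GC adjustment and leaving out pseudogenes.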

Additional observations from a re-analysis of the deposited data

Results flagged for a closer look

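In 7 genes the ObF1 and LnF1 libraries differed by at least 2-fold in opposite directions in the 2 drinks. With 1 library in each group, the difference between the drinks was not tested. Col15a1, a collagen of basement membrane zones, had a log2 difference of -1.64 with 1,3BD and 2.05 with water, where it was at 41.5 CPM in LnF1 and 172 CPM in ObF1. Lama5, a laminin chain of basement membranes, was at 113 CPM in LnF1 and 49.05 CPM in ObF1 with 1,3BD (-1.20) and at 41.1 CPM in LnF1 and 87.5 CPM in ObF1 with water (1.09), and came to -0.62 with 1,3BD after the GC adjustment. Gm23935 (-4.66 and 1.11) and Gm24270 (-3.12 and 1.06) lay in the direction of the ribosomal RNA entry in both drinks, and its part in them was not tested. Gm29216 had 3.06 and -1.21, Gm9843 1.94 and -1.07, and Gm3365 1.12 and -1.11.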

How the results depend on the processing

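The counts moved most with the minimum level. At a mean of 1 CPM, 362 genes were higher and 477 lower in ObF1, at 20 CPM 83 and 86, and with no minimum 1511 and 2074. The median log2 difference at these settings was 0.0207, 0.0676 and 0.00301. Genes past 2-fold in the same direction in both drinks numbered 69 higher and 65 lower at 1 CPM, 9 and 8 at 20 CPM, and 257 and 342 with no minimum, and list genes past 2-fold 45 at 20 CPM and 168 with no minimum. With library totals in place of the authors' factors, all differences shifted by -0.12. The median was then -0.0827, and 125 genes were higher and 386 lower. With totals of nuclear genes the median was -0.0376, and after centring it was 0. The GC adjustment left 92 lower genes. With the pseudocount of 1 CPM, protein-coding genes only or no pseudogenes, both counts stayed within 1.5 times, as did the higher count under the GC adjustment. Asking for a counting interval without 1 could not change either count at this minimum. None of the 101 named genes past 2-fold changed direction under another pseudocount, scaling, centring or the GC adjustment. Each of these settings shifts a gene by too little to reverse a 2-fold difference, so no other outcome was possible. The GC adjustment took 29 of the 101 named genes under 2-fold, the pseudocount 10, library totals 4 and nuclear totals 1. No paired analysis was possible because each group is 1 library and the result comes from no test. Depth limits the precision of genes near the minimum, and the spread between mice was not measured.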
